A study of Drosophila melanogaster with 8 samples.

Results

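The vacuolar ATPase (V-ATPase) genes of Drosophila melanogaster were examined in sorted clock neurons and in sorted neurons of all kinds. Members were all genes whose name in the gene tables starts with Vha, which includes the accessory gene VhaAC45, and 32 of 17868 genes met this rule. They comprise 13 genes for subunits of the V1 sector, 18 genes for subunits of the V0 sector and 1 accessory gene. A pair of related genes lies outside the rule because the tables give them other names, and they are described beside VhaAC45.

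The V-ATPase is a rotary proton pump. Its cytosolic V1 sector hydrolyzes ATP at alternating A and B subunits and turns a central stalk, and its membrane V0 sector uses this rotation to carry protons through a ring of c-type subunits against the a subunit. The pump acidifies lysosomes and endosomes, and in neurons it also acidifies synaptic vesicles, where the proton gradient drives the loading of transmitter. In the fly most subunits are encoded by a main gene and by additional copies, several of which are known mainly from gut, Malpighian tubule or testis. Vha100-1 encodes the a subunit known from fly synapses.

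RNA was sequenced from 8 libraries, 4 of clk856 > EGFP and 4 of nSyb > EGFP neurons, and each genotype had 2 libraries (R1 and R2) per time point, ZT2 or ZT14. ZT is Zeitgeber time, counted in hours from lights on. All flies were males of about 2 weeks, raised at 25 °C in cycles of 12 h light and 12 h dark with no treatment, and all carried EGFP driven by the GAL4-UAS system. The clk856-GAL4 driver labels clock neurons, from which about 500 cells were sorted per library, and nSyb-GAL4 labels all neurons, from which about 1000 cells were sorted per library. The nSyb cells are thus a mixture of neuron types that can itself hold clock neurons. According to the methods, 2 sets of cells were taken from each dissociated sample, and it is not stated whether libraries R1 and R2 of a time point came from 1 dissociation. The p values therefore measure the spread between these libraries, which may be technical. The genotypes also differed in cells per library and in the number of brains dissected, and these differences cannot be told apart from the genotype.

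Reads on genes numbered 4823985 to 8439193 in the clk856 libraries and 7970236 to 8449829 in the nSyb libraries, so that 3 reads, taken as the limit of detection, corresponded to an RPM (reads as scaled by the authors to a total for the library) of 0.161 to 0.299. The summed RPM of 5 neuronal markers was 2796 to 2962 in clk856 and 2490 to 2768 in nSyb, and that of 4 clock neuron markers was 255 to 1036 and 6.67 to 47.6. The summed RPM of 6 glial markers was 36.3 to 68.4 in clk856 and 72.2 to 187 in nSyb, and none of these 6 genes was at 0 in all libraries of a genotype. Of the 5 glial genes tested, 1 was called lower in clk856 and none higher. Muscle markers summed to at most 1.54 RPM and photoreceptor markers to at most 6.80 RPM in any library. Hemocyte and fat body markers summed to 2.89 to 22.4 RPM in clk856 and 6.41 to 19.2 in nSyb, and among them Hml reached 11.6 RPM in clk856 ZT14 R2. The spread between libraries was larger in nSyb, with a biological coefficient of variation of 0.824 against 0.364 in clk856. In these bulk samples, fewer cells of a type and less RNA per cell cannot be told apart.

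Both kinds of neuron expressed mainly 1 gene for each V-ATPase subunit, and the other copies of that subunit contributed little. For the A, a and e subunits this gene was a second copy, Vha68-1, Vha100-1 and VhaM9.7-a. The copies taken here as the main genes of these subunits, Vha68-2, Vha100-2 and VhaM9.7-b, were the minor ones in these neurons. Of the 32 members, 15 were above 3 RPM in every library, and these covered all 8 V1 subunits, all 5 kinds of V0 subunit and VhaAC45. The mean was above 3 RPM for 17 members in clk856 and for 17 members in nSyb. No read was counted in any of the 8 libraries for Vha100-4, Vha100-5, Vha16-2, Vha16-3, Vha16-5, VhaAC39-2, VhaM9.7-d and VhaPPA1-2. For counting error only, this limits each of them to below 0.299 RPM in a library. Vha16-2 shares 84.5% of its exon bases with an antisense RNA gene and Vha100-5 18.1%, and the others share at most 1.79% with another gene. Reads on shared bases may have gone uncounted, so the limit may not hold for Vha16-2 and Vha100-5. Another 6 members (Vha100-3, Vha14-2, Vha16-4, Vha36-2, Vha36-3 and Vha68-3) had reads in some libraries but stayed under a mean of 3 RPM in both genotypes.

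All members together took 1.01% to 1.12% of the reads on genes in the clk856 libraries and 1.11% to 1.23% in the nSyb libraries. The summed RPM of the V1 genes was 3128 to 3424 in clk856 and 2953 to 3433 in nSyb, so the genotypes overlapped. The summed RPM of the V0 genes was 1495 to 1554 in clk856 and 1807 to 1971 in nSyb, with no overlap. The ratio of the V1 sum to the V0 sum, which does not depend on how a library is scaled, was 2.17 ± 0.0516 (SD, n = 4) in clk856 and 1.73 ± 0.138 (SD, n = 4) in nSyb. It ranged from 2.09 to 2.203 and from 1.57 to 1.90, and the ranges did not overlap.

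Levels were compared between genes only as RPM per kilobase of annotated exon. On this scale VhaM9.7-a, an e subunit of V0, was first in both genotypes, with 441 ± 43.6 (SD, n = 4) in clk856 and 560.2 ± 43.6 (SD, n = 4) in nSyb. Vha13, the G subunit of the peripheral stalks, followed with 399 ± 35.4 in clk856 and 388 ± 42.5 in nSyb. In clk856 these neighbors differed by about their SD, and Vha68-1 (288), Vha36-1 (270.0) and Vha14-1 (252) came next. In nSyb the next places were taken by Vha14-1 (291), Vha68-1 (284) and VhaPPA1-1 (264). The lowest of the 15 genes in both genotypes was VhaM9.7-b, at 37.3 in clk856 and 65.0 in nSyb. Exon length was counted over all annotated transcripts of a gene, so that genes with long alternative exons have a lower level per kilobase.

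**Figure D1:**
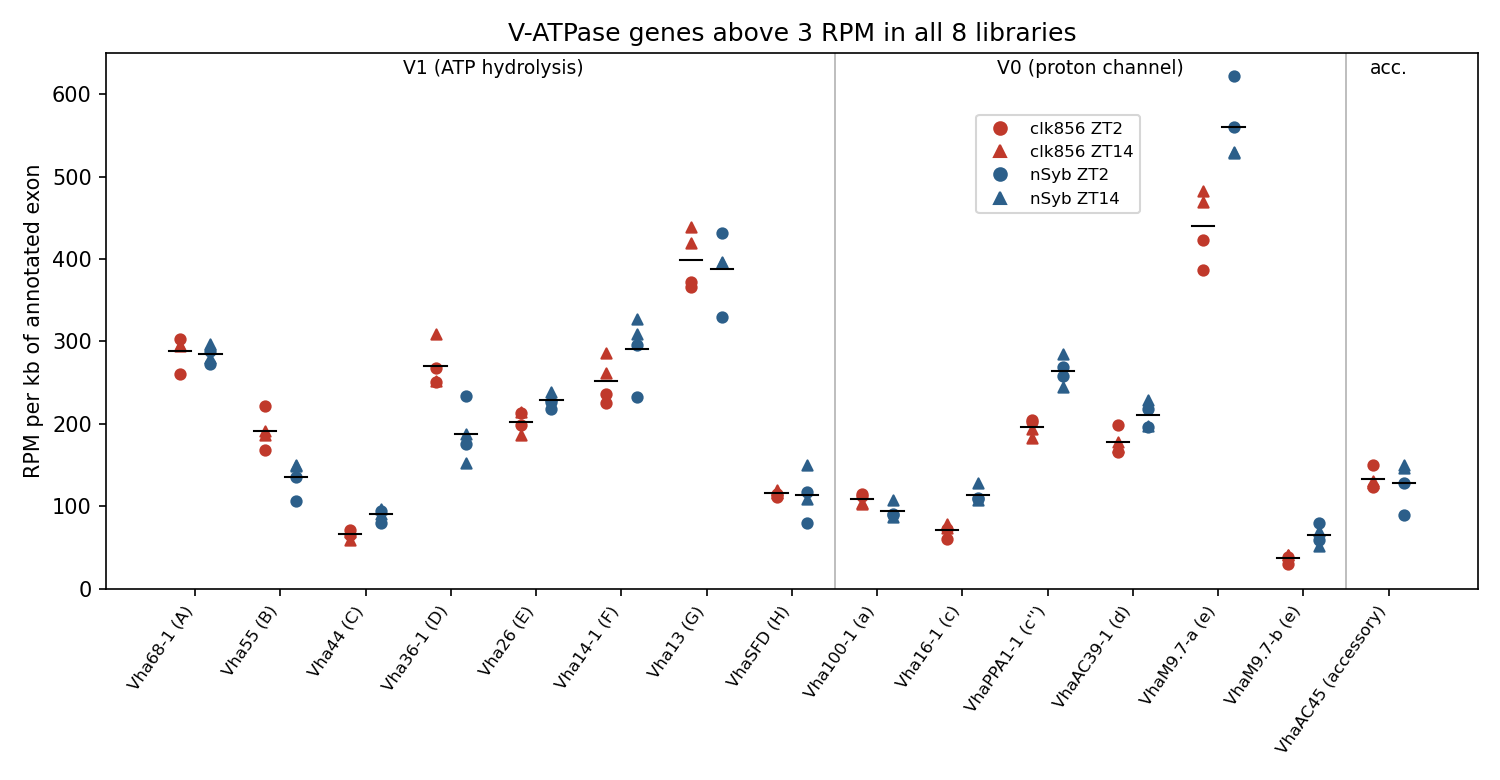
Level of the 15 V-ATPase genes above 3 RPM in every library, as RPM per kilobase of annotated exon, in each of the 8 libraries (red, clk856; blue, nSyb; circles, ZT2; triangles, ZT14; bars, mean of 4 libraries). VhaM9.7-a is first in both genotypes and VhaM9.7-b last. The blue points lie above all red points for Vha44, Vha26, Vha16-1, VhaPPA1-1, VhaM9.7-a and VhaM9.7-b, and below them for Vha55 and Vha36-1.

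The copies of the A subunit, which holds the catalytic site, were represented almost entirely by Vha68-1 (chromosome 2L, 13000770-13004107 in BDGP6.54, the dm6 assembly). Its RPM was 809.6, 699, 787 and 792 in clk856 and 772, 729.7, 750.0 and 794 in nSyb, in the order ZT2 R1, ZT2 R2, ZT14 R1 and ZT14 R2 that is used for all values below. It made up 99.7% ± 0.258 of the RPM per kilobase of the 3 A copies in clk856 and 99.0% ± 0.968 in nSyb (SD, n = 4). Vha68-2, an A copy known from many fly tissues, lies in the same region (2L, 12974322-12978607). Its RPM was 0, 0.10, 1.73 and 5.07 in clk856 and 3.63, 13.3, 15.7 and 0.05 in nSyb. The genotypes overlapped, and the libraries of nSyb spanned the whole range. Between genotypes the log2 fold change of Vha68-2 was −2.20, with an adjusted p of 0.440 in the edgeR quasi-likelihood test. The 6 glial markers did not share 1 order over the nSyb libraries. In the nSyb libraries wrapper was at 0.62, 21.1, 15.7 and 0 RPM, alrm at 0, 12.9, 22.5 and 2.36, and Gs2 at 24.4, 73.3, 91.25 and 59.5, so that these 3 were higher in ZT2 R2 and ZT14 R1, as Vha68-2 was, than in the other nSyb libraries. Eaat1 was at 47.15, 79.9, 40.4 and 62.6 RPM, repo at 0, 0, 0 and 6.47, and moody at 0, 0, 0 and 0.44, with repo and moody found only in the library with the least Vha68-2. The part of glial RNA in the Vha68-2 reads was not tested. Vha68-1 and Vha68-2 are similar copies, and how reads that match both were counted is not given in the sources used here, so their shares are uncertain.

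The a subunit, which forms the proton half-channels and directs the pump to its membrane, was encoded mainly by Vha100-1 (3R, 29131193-29137980). Vha100-1 had an RPM of 369, 376, 343 and 337 in clk856 and of 294, 297, 286 and 355 in nSyb. Only the nSyb ZT14 R2 library reached the range of clk856. Vha100-2 (3R, 18390323-18399169), another a copy, was detected in all 4 clk856 libraries and in none of the nSyb libraries. It had 108, 227, 25 and 84 reads in clk856, equal to 6.06, 22.6, 1.73 and 5.61 RPM, and 0 reads in each nSyb library. Its mean of 9.01 ± 9.29 RPM (SD, n = 4) in clk856 was at least 54.0-fold higher than the limit of 3 reads per library in nSyb. The clk856 ZT2 R2 library held by far the highest value, and without it the mean was 4.47 RPM and the bound 26.8-fold. Because Vha100-2 entered the test only through its reads in clk856, its p value is not used as support.

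Vha100-2 made up 0.512% to 5.79% of the RPM per kilobase of the 5 a copies in clk856, and Vha100-1 the remaining 94.2% to 99.4% apart from Vha100-3, which was at or below 1.13 RPM. In nSyb Vha100-1 made up 100% of the a copies in every library. Across the clk856 libraries the 6 glial markers again did not share 1 order. The RPM of repo was 1.63, 5.68, 0.14 and 2.67, that of moody 0.45, 2.29, 0.48 and 2.14, and that of Gs2 25.4, 39.8, 14.99 and 36.5, and these 3 were highest in ZT2 R2. The RPM of alrm was 13.8, 2.39, 2.21 and 9.54, that of wrapper 1.51, 0, 0 and 8.94, and that of Eaat1 25.6, 16.45, 18.5 and 2.87, and these 3 were highest in other libraries. The glial sum was 68.4, 66.6, 36.3 and 62.7. The part of other cells in the Vha100-2 reads was not tested.

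The e subunit, a small V0 protein, was the only subunit with several copies above 3 RPM in both genotypes. VhaM9.7-a (3L, 4262705-4263464) made up 90.8% ± 1.42 of the RPM per kilobase of the e copies in clk856 and 87.2% ± 2.33 in nSyb (SD, n = 4). VhaM9.7-b (3L, 21539862-21541215) made up 7.71% ± 1.01 in clk856 and 10.1% ± 1.84 in nSyb, and VhaM9.7-c 1.44% ± 0.970 and 2.69% ± 0.657. The shares overlapped between genotypes for VhaM9.7-b, which ranged from 6.46% to 8.901% and from 8.50% to 12.2%, and not for VhaM9.7-a, which ranged from 89.8% to 92.9% and from 85.1% to 89.6%. These shares are descriptions and were not tested.

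The remaining duplicated subunits were each represented by 1 gene. Vha36-1 made up 99.2% of the D copies in clk856 and 99.0% in nSyb, Vha14-1 99.9% and 100% of the F copies, and Vha16-1 99.6% and 100% of the c copies. The share of Vha16-1 may be too high, because reads of the overlapped copy Vha16-2 may have gone uncounted. VhaPPA1-1 and VhaAC39-1 made up 100% of the c'' and d copies in all libraries. The reads of the minor D copies came from few libraries. Vha36-2 was at 2.49 RPM in clk856 ZT2 R2 and at 5.99 RPM in nSyb ZT14 R1, and at 0 in the other 6 libraries. Vha36-3 was at 1.12, 3.99, 2.35 and 0.13 RPM in clk856, and in nSyb it was at 2.85 RPM in ZT14 R2 and at 0 elsewhere. Its call depended on that library. Vha36-3 did not pass the test over all 8 libraries (edgeR, adjusted p = 0.668) and passed it without nSyb ZT14 R2 (adjusted p = 0.0398), a fit in which all nSyb libraries were at 0.

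**Figure D2:**
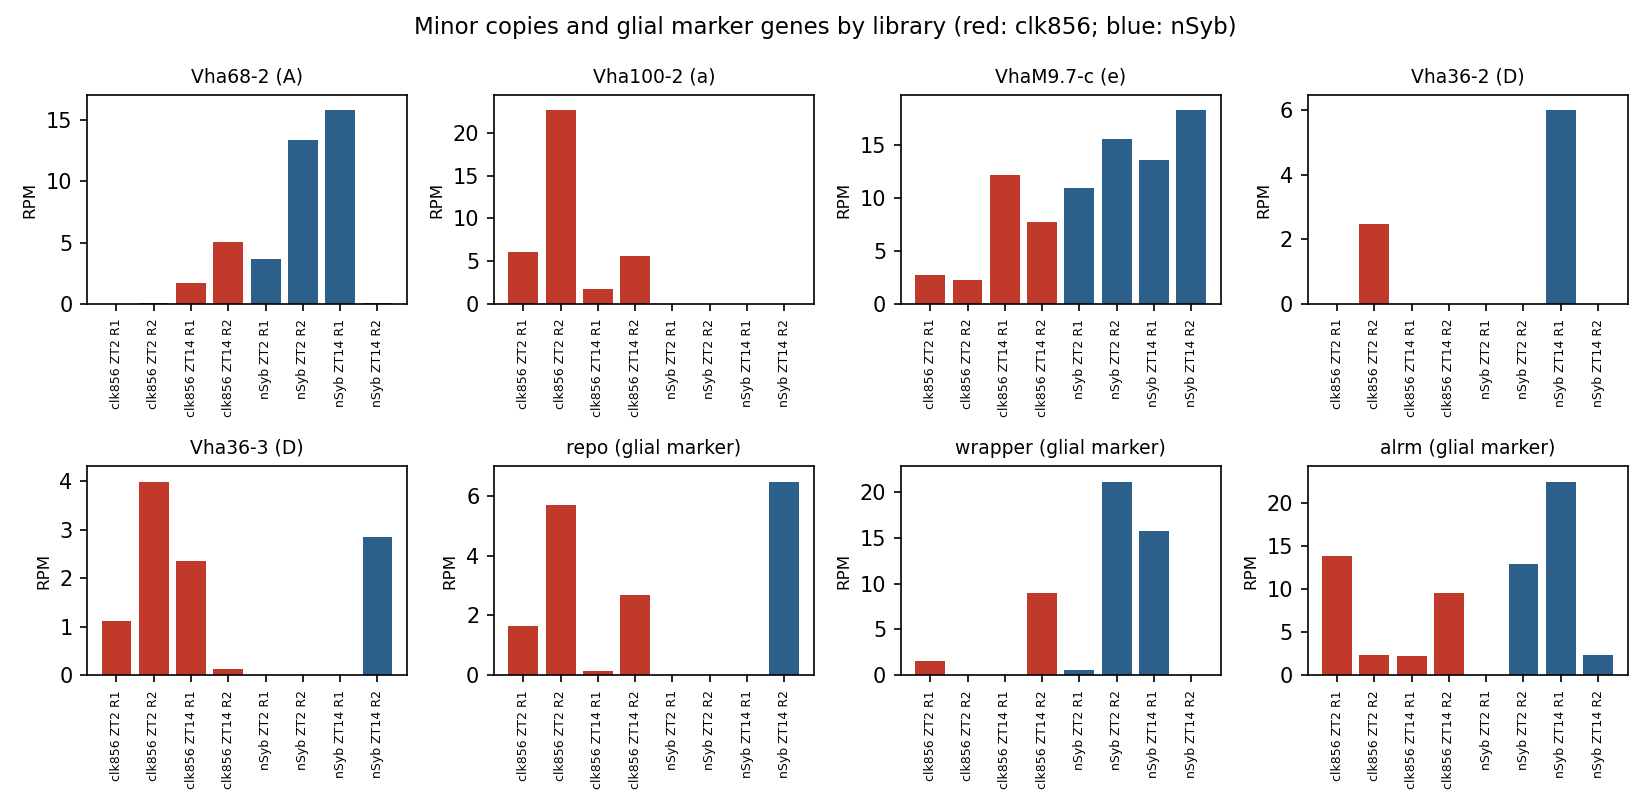
RPM of 5 minor V-ATPase copies and of 3 glial marker genes in each library (red bars, clk856; blue bars, nSyb; 1 bar per library, each panel on its own linear axis). Vha100-2 is present in all 4 clk856 libraries and in no nSyb library, whereas Vha68-2 varies from 0.05 to 15.7 RPM among the nSyb libraries.

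To ask which V-ATPase genes differ between clock neurons and neurons in general, the genotypes were compared over all genes, 4 libraries against 4, with both time points combined. Of the 32 members, 19 had enough reads to be tested. Vha100-2, Vha36-1 and Vha55 were higher in clk856, and Vha16-1, Vha44, VhaM9.7-b and VhaPPA1-1 were lower, so that 7 of 19 (36.8%) passed the test, or 4 without clk856 ZT14 R1. Among all 7784 genes tested 17.0% passed, 10.3% higher and 6.69% lower in clk856. Without Vha100-2, whose direction was fixed by the reads through which it entered the test, the count was 6 of 18 members (33.3%). Of the 7 members, Vha100-2 alone differed at least 2-fold. The RPM of the 4 clk856 libraries lay above that of all nSyb libraries for 3 tested members and below it for 6, against 13.5% and 12.3% of all genes tested (25.8% in either direction). Without Vha100-2, which entered the test only through its reads in clk856, 2 members lay above. RPM are scaled by library totals, without the further scaling used in the test, so these separations and the calls rest on different scales. The 13 members not tested were those at 0 or with few reads, and the count does not cover them.

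The 15 genes expressed in all libraries differed little in size. Their log2 fold changes had absolute values between 0.09 and 0.73, the largest of which corresponds to 1.66-fold. Their median was −0.11, against −0.01 for all genes tested. The 8 V1 genes had a median of 0.09 and ranged from −0.38 to 0.60, with 2 called higher and 1 lower. The 6 V0 genes had a median of −0.32 and ranged from −0.73 to 0.28, with 3 called lower and none higher. When libraries were scaled by their size alone instead of by TMM, the median of all genes moved to −0.14, and 675 genes were called higher and 787 lower in place of 805 and 521. Under that scaling Vha13 (−0.02), Vha68-1 (−0.04), VhaAC45 (−0.01) and VhaSFD (−0.04), none of which passed the test, turned to the other side of 0.

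Within V1, Vha55 and Vha36-1 were higher in clk856. Vha55 (3R, 12623762-12627829), the only gene for the B subunit, had an RPM of 619, 468, 532 and 519 in clk856 and 297, 377, 419 and 415 in nSyb. Every clk856 library lay above every nSyb library, and the log2 fold change was 0.57 ± 0.13 (SE, adjusted p = 0.0135, edgeR). Vha36-1 (2R, 15541435-15542498) encodes the D subunit of the central stalk. Its RPM was 285, 267, 268 and 329 in clk856 and 248, 187, 162 and 200.01 in nSyb. The libraries did not overlap, and the log2 fold change was 0.60 ± 0.13 (SE, adjusted p = 0.0121).

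Vha44 (2R, 16324813-16336637), the C subunit that is released when V1 detaches from V0, was lower in clk856. Its RPM was 264, 285, 237 and 276 in clk856 and 379.8, 319.7, 365.5 and 389 in nSyb. The log2 fold change was −0.38 ± 0.09 (SE, adjusted p = 0.0186), and the call was lost without clk856 ZT14 R1 (adjusted p = 0.0556). The E subunit Vha26 had a lower RPM in each clk856 library (622, 579.7, 627 and 546) than in any nSyb library (661, 637, 699 and 686), with a log2 fold change of −0.11 that did not pass the test (adjusted p = 0.390). RPM are not scaled by TMM as the test is. With libraries scaled by size alone, the log2 fold change of Vha26 was −0.24 (adjusted p = 0.0529, edgeR).

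The other V1 genes overlapped between genotypes and did not pass the test. The log2 fold change of Vha68-1 was 0.09 (adjusted p = 0.449). That of the F subunit Vha14-1 was −0.14 (adjusted p = 0.529), and that of the G subunit Vha13 was 0.11 (adjusted p = 0.527). For the H subunit VhaSFD, which in yeast holds detached V1 inactive, it was 0.09 (adjusted p = 0.771). VhaSFD was even in clk856, at 316 to 339.85 RPM, and ranged from 226 to 426 RPM in nSyb.

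Within V0, the members of the proton-carrying ring were lower in clk856. Vha16-1 (2R, 6625242-6633090), the c subunit, had an RPM of 221, 187, 242 and 226 in clk856 and 336, 337, 333 and 393 in nSyb. All clk856 libraries were below all nSyb libraries, with a log2 fold change of −0.61 ± 0.10 (SE, adjusted p = 0.00301, edgeR). VhaPPA1-1 (3R, 14902330-14904061), the related c'' subunit, had an RPM of 277, 273, 247 and 262 in clk856 and 363, 349, 385 and 332 in nSyb. The libraries were again separate, and the log2 fold change was −0.36 ± 0.09 (SE, adjusted p = 0.0193). This call was lost without clk856 ZT14 R1 (adjusted p = 0.0528), clk856 ZT14 R2 (0.0530) or nSyb ZT14 R1 (0.0535).

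Among the e subunits, VhaM9.7-b was lower in clk856, and VhaM9.7-a and VhaM9.7-c did not pass the test. VhaM9.7-b had an RPM of 46.4, 35.8, 49.2 and 50.3 in clk856 and 71.7, 97.4, 62.3 and 84.65 in nSyb. The log2 fold change was −0.73 ± 0.19 (SE, adjusted p = 0.0249), with no overlap of libraries. The call was lost without any single clk856 library (adjusted p = 0.0535 to 0.0680), without nSyb ZT2 R2 (0.0564) and without nSyb ZT14 R2 (0.0531). VhaM9.7-a had an RPM of 275, 301, 342 and 333 in clk856 and 441, 398, 375 and 377 in nSyb. Its libraries did not overlap either, and the log2 fold change of −0.28 ± 0.10 (SE) missed the threshold (adjusted p = 0.0759). It passed when libraries were scaled by size alone (adjusted p = 0.0177) and in DESeq2 (adjusted p = 0.0158). VhaM9.7-c had an RPM of 2.69, 2.29, 12.2 and 7.74 in clk856 and 10.9, 15.55, 13.5 and 18.2 in nSyb. The clk856 ZT14 R1 library reached the nSyb range, and the log2 fold change of −1.16 ± 0.62 (SE) did not pass the test (adjusted p = 0.251).

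Vha100-1 and VhaAC39-1 did not pass the test between genotypes. For Vha100-1 the log2 fold change was 0.28 ± 0.09 (SE, adjusted p = 0.0705). Without nSyb ZT14 R2, the library that reached the clk856 range, it was 0.35 and passed the threshold (adjusted p = 0.0345). Over all 8 libraries Vha100-1 also passed in DESeq2 (adjusted p = 0.0158). It did not pass in edgeR when libraries were scaled by size alone (adjusted p = 0.311). VhaAC39-1, the d subunit that joins the ring to the central stalk, had an RPM of 355, 297, 308 and 319 in clk856 and 352, 391, 353 and 411 in nSyb. These overlapped, and the log2 fold change was −0.17 (adjusted p = 0.273).

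No accessory gene passed the test between genotypes. VhaAC45, a membrane protein of the V0 sector, had an RPM of 303, 248, 264 and 258 in clk856 and 258, 179.7, 295 and 302 in nSyb, with a log2 fold change of 0.13 ± 0.15 (SE, adjusted p = 0.655). CG31030, which the annotation lists as VhaAC45RP, had a mean of 545 ± 20.8 RPM in clk856 and 520.4 ± 51.1 in nSyb (SD, n = 4) and a log2 fold change of 0.14 (adjusted p = 0.330). ATP6AP2, an accessory gene with the synonym VhaM8.9, had 369 ± 9.20 and 399.9 ± 19.04 RPM, with every clk856 library below every nSyb library. Its log2 fold change was −0.05 (adjusted p = 0.730). CG31030 and ATP6AP2 lie outside the rule for members, and neither is counted above.

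**Figure D3:**
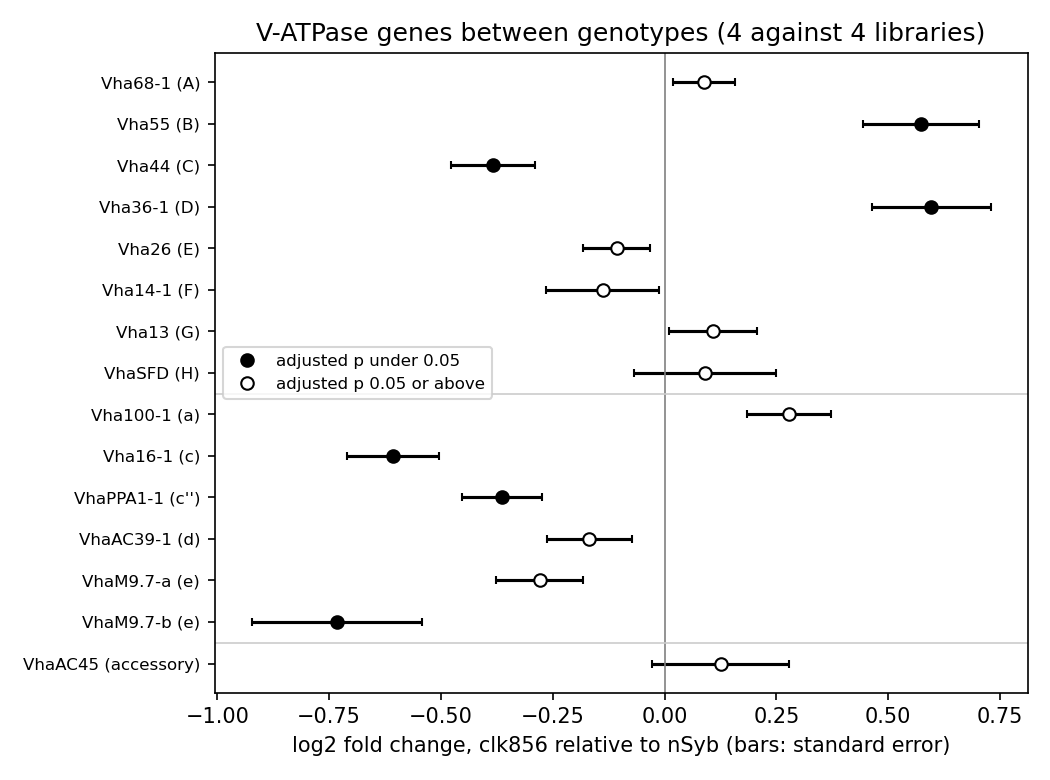
Log2 fold change of the 15 V-ATPase genes expressed in all libraries, clk856 relative to nSyb, with its SE from the edgeR fit of 4 against 4 libraries (filled, adjusted p under 0.05; open, 0.05 or above; lines separate V1, V0 and VhaAC45). The filled V1 points lie on both sides of 0, and the 3 filled V0 points, Vha16-1, VhaPPA1-1 and VhaM9.7-b, lie below it.

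The glial marker sum did not overlap between genotypes and was lower in clk856, in the same direction as Vha16-1, Vha44, VhaPPA1-1 and VhaM9.7-b. It was 68.4, 66.6, 36.3 and 62.7 RPM in clk856 and 72.2, 187, 169.8 and 131 in nSyb. Single glial markers differed in direction. Eaat1 was lower in every clk856 library than in any nSyb library. In contrast, moody, with too few reads to be tested, was higher in every clk856 library (mean 1.34 against 0.11 RPM). The other glial markers overlapped, with a higher mean in clk856 for repo (2.53 against 1.62 RPM) and a lower one for alrm, wrapper and Gs2. Within nSyb, ZT2 R1 had the lowest glial sum and ZT2 R2 the highest. In the nSyb libraries Vha16-1 was at 336, 337, 333 and 393 RPM and Vha44 at 379.8, 319.7, 365.5 and 389. There VhaPPA1-1 was at 363, 349, 385 and 332 RPM and VhaM9.7-b at 71.7, 97.4, 62.3 and 84.65. Within nSyb, VhaM9.7-b was highest in ZT2 R2, as the glial sum was, while Vha16-1, Vha44 and VhaPPA1-1 were highest in other libraries. The part of glial RNA in the differences between genotypes was not tested.

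The spread from library to library was described by the coefficient of variation of RPM. Over the 4 libraries of a genotype, time points combined, it was 3.005% to 14.6% (median 8.87%) for the 15 genes in clk856. In nSyb it was 3.64% to 25.5% (median 10.3%). Over all tested genes above a mean of 3 RPM the medians were 19.2% (6911 genes) and 31.9% (6896 genes). Among genes at or above the mean RPM of the lowest of the 15, the medians were 12.6% (2593 genes) and 15.02% (1434 genes). Higher levels are measured with less counting error, and these values are descriptions without a test.

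To ask whether V-ATPase expression differs between morning and evening, ZT14 was compared with ZT2 within each genotype, 2 libraries against 2. No member passed the test among 20 tested in clk856 or 17 tested in nSyb, against 0.0244% and 0.0% of all genes tested. At an unadjusted p under 0.05 there were 2 members in clk856 and 0 in nSyb, against 6.77% and 3.95% of all genes. DESeq2 also called no member at either comparison. The edgeR fit in clk856 called 2 of 8188 genes higher at ZT14 and 0 lower, and so it missed Clk. In clk856 the RPM of Clk was 81.6 and 108 at ZT2 and 14.1 and 16.7 at ZT14. A member without a call can therefore still differ between the times. The interaction of genotype and time passed for 0 of 21 members tested (0.0112% of all genes), with 2 members at an unadjusted p under 0.05 (6.51% of all genes), and DESeq2 again called 0.

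The time effects of the 15 genes expressed in all libraries were small. Their log2 fold changes from ZT2 to ZT14 ranged from −0.14 to 0.27 in clk856 and from −0.28 to 0.44 in nSyb. In clk856 the ZT14 libraries were separate from the ZT2 libraries for 8 of the 15 genes, 6 higher at ZT14 (Vha13, Vha14-1, Vha16-1, VhaM9.7-a, VhaM9.7-b and VhaSFD) and 2 lower (Vha100-1 and VhaPPA1-1). In nSyb they were separate for 5 genes, with Vha14-1, Vha26, Vha55 and VhaAC45 higher at ZT14 and VhaM9.7-a lower. Among all genes tested the libraries of the time points were separate for 38.5% in clk856 and 32.4% in nSyb. Vha14-1, the F subunit of the central stalk, was higher in both ZT14 libraries of both genotypes. Its RPM was 149, 156, 188 and 172 in clk856 and 195, 153, 216 and 204 in nSyb, with log2 fold changes of 0.24 ± 0.14 and 0.26 ± 0.19 (SE), neither past the threshold.

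The values of VhaM9.7-a lay in opposite directions in the 2 genotypes, without passing the test. Both ZT14 libraries were higher in clk856 (log2 fold change 0.23 ± 0.11, SE), and both were lower in nSyb (−0.17 ± 0.13, SE). The interaction of 0.38 ± 0.16 (SE) had an unadjusted p of 0.0456 and an adjusted p of 0.754. The members with an unadjusted p under 0.05 in clk856 were minor copies, Vha68-2 and VhaM9.7-c. For VhaM9.7-c the RPM at ZT2 was 2.69 and 2.29 and at ZT14 12.2 and 7.74, with a log2 fold change of 1.99 ± 0.63 (SE, adjusted p = 0.690).

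**Figure D4:**
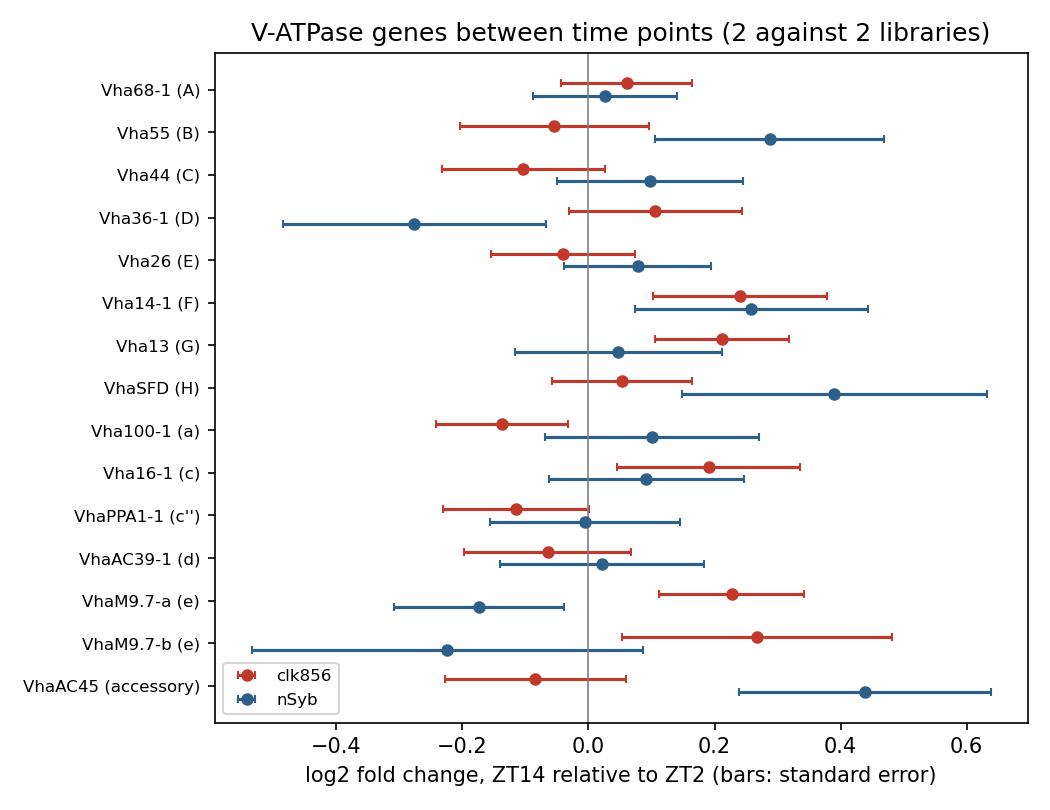
Log2 fold change from ZT2 to ZT14 of the 15 V-ATPase genes expressed in all libraries, with its SE from the edgeR fits of 2 against 2 libraries (red, clk856; blue, nSyb). The values lie between −0.28 and 0.44, and no gene passed the test in either genotype.

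Several hand-made lists of genes that work with the V-ATPase were read from the same comparison of genotypes. The list of assembly and regulation held 7 genes, of which 6 were tested, 1 was called higher and 2 lower in clk856, and its median log2 fold change was −0.06. The gene not tested, CG7071, had no counted read and shares 96.7% of its exon bases with other genes. Among all genes tested, 10.3% were called higher and 6.69% lower, 17.0% in all, with a median of −0.01, and these apply to each of the lists. Rbcn-3B, a rabconnectin subunit that helps to assemble V1 on V0, was at 56.8, 95.6, 78.1 and 78.9 RPM in clk856 and 37.3, 30.25, 16.8 and 37.0 in nSyb. All clk856 libraries were higher, with a log2 fold change of 1.42 ± 0.27 (SE, adjusted p = 0.00563, edgeR). Its partner Rbcn-3A had 0.43 ± 0.17 (SE) and did not pass the test (adjusted p = 0.128). Mitf, the fly relative of mammalian TFEB and an activator of V-ATPase genes in the fly, was at 29.6, 22.9, 26.0 and 28.3 RPM in clk856 and 92.8, 66.2, 61.0 and 65.35 in nSyb. All clk856 libraries were lower, with a log2 fold change of −1.35 ± 0.19 (SE, adjusted p = 0.00117). The gene mtd, whose TLDc domain is known from V-ATPase regulators in yeast and mammals, was at 452 ± 40.0 RPM in clk856 and 634 ± 33.5 in nSyb (SD, n = 4), with a log2 fold change of −0.42 ± 0.09 (SE, adjusted p = 0.00856).

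Of 5 vesicular transporters, which load transmitter at the expense of the proton gradient, 1 was called higher and 1 lower in clk856, with a list median of 0.20 (all genes tested, 10.3% higher and 6.69% lower). Vmat, the vesicular monoamine transporter, was at 1479, 729, 1373 and 1138 RPM in clk856 and 133, 182, 360.3 and 32.1 in nSyb. The genotypes were far apart, and the log2 fold change was 2.80 ± 0.58 (SE, adjusted p = 0.00895). Vmat shares 26.2% of its exon bases with other genes. The orphan transporter prt was lower at 11.3 ± 4.42 against 33.1 ± 11.7 RPM (SD, n = 4; adjusted p = 0.0249). The prt call was lost without clk856 ZT2 R2, clk856 ZT14 R1, clk856 ZT14 R2 or nSyb ZT2 R2 (adjusted p = 0.0657 to 0.0736). The acetylcholine transporter VAChT (0.43), the glutamate transporter VGlut (0.20) and the GABA transporter VGAT (−0.37) had log2 fold changes that did not pass the test (adjusted p = 0.135, 0.590 and 0.0670).

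Of 13 lysosomal and endolysosomal genes, 11 were tested, 3 were called higher and 1 lower in clk856, with a median log2 fold change of 0.18 (all genes tested, 10.3% higher and 6.69% lower). The protease cathD was at 349, 334, 269.9 and 361 RPM in clk856 and 200.1, 205, 176 and 148 in nSyb (log2 fold change 0.91 ± 0.14, SE, adjusted p = 0.00174). ClC-c, a chloride transporter of the endosomal ClC family, was at 72.1 ± 15.7 and 13.0 ± 9.11 RPM (SD, n = 4; log2 fold change 2.55, adjusted p = 0.00251). The lysosomal efflux transporter spin was at 44.9 ± 7.72 and 12.6 ± 8.21 RPM (SD, n = 4; log2 fold change 1.90, adjusted p = 0.0255). The spin call was lost without clk856 ZT2 R1, clk856 ZT2 R2, clk856 ZT14 R1 or nSyb ZT14 R1 (adjusted p = 0.0565 to 0.0692). Npc2a, a sterol carrier of the lysosome lumen, was lower at 12.4 ± 1.58 against 32.1 ± 11.5 RPM (SD, n = 4; adjusted p = 0.0219), a call lost without any single clk856 library or either nSyb ZT14 library (adjusted p = 0.0525 to 0.0675). The membrane protein Lamp1 had a log2 fold change of −0.07 (adjusted p = 0.709).

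On the lysosomal surface the V-ATPase is known to bind the Ragulator complex, which carries the Rag GTPases that recruit TOR. Of 10 genes on this list, 9 were tested and 1 was called lower in clk856, with a median of −0.13 (all genes tested, 6.69% lower and 17.0% in either direction). This was CG14977, annotated as Lamtor4 and sharing 10.1% of its exon bases with another gene. It was at 16.7, 17.4, 17.2 and 18.75 RPM in clk856 and 46.75, 28.05, 33.5 and 28.9 in nSyb (log2 fold change −0.90 ± 0.25, SE, adjusted p = 0.0334). The call was lost without any single clk856 library, without nSyb ZT2 R1 or without nSyb ZT14 R1 (adjusted p = 0.0529 to 0.0854). Tor itself had a log2 fold change of 1.20 ± 0.51 (SE) and did not pass the test (adjusted p = 0.149). The gene not tested, CG5189 (Lamtor2), had no counted read and shares 100% of its exon bases with other genes.

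**Figure D5:**
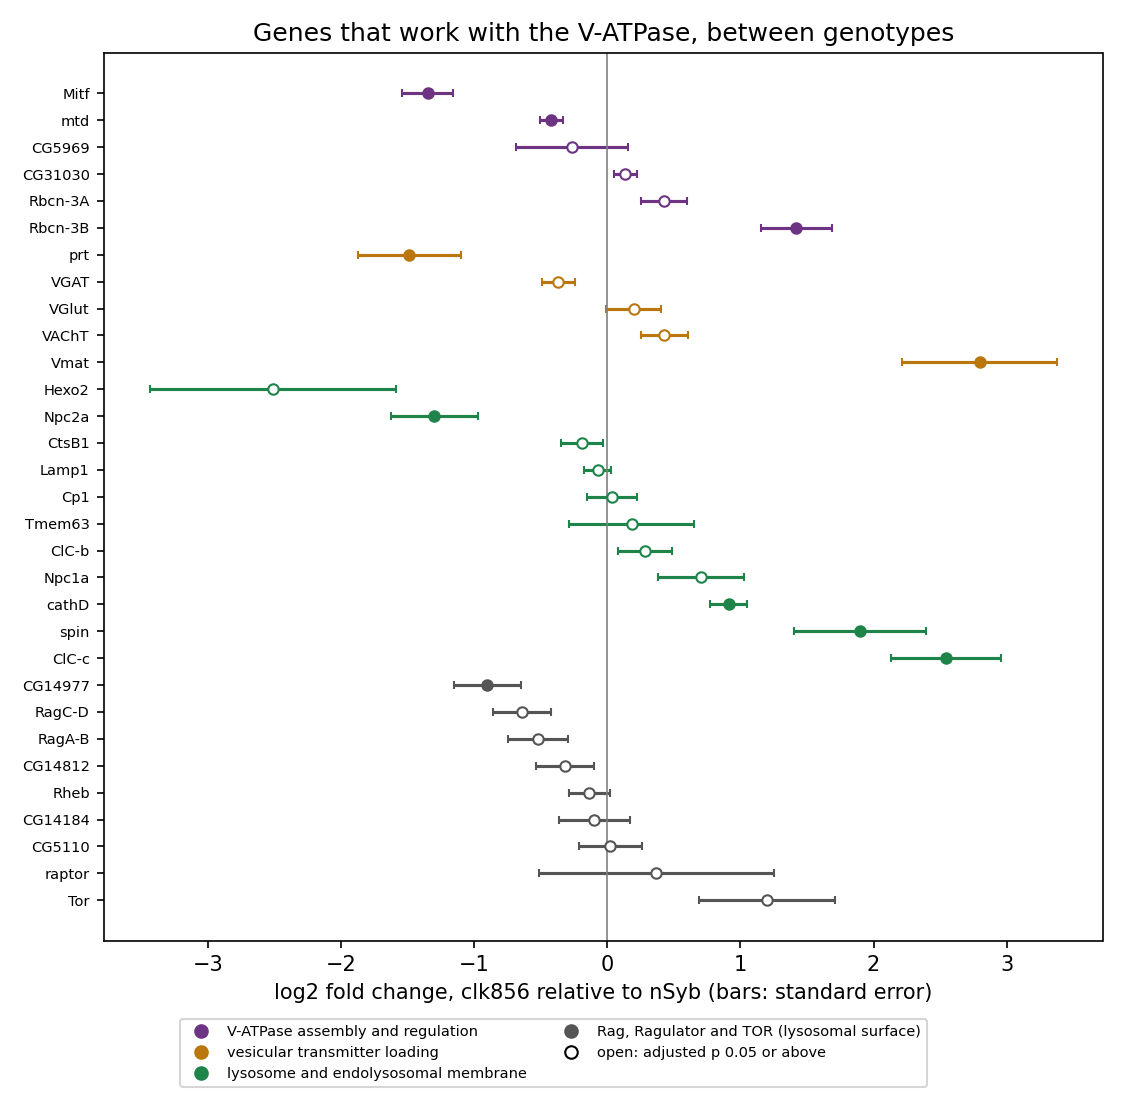
Log2 fold change, clk856 relative to nSyb, with its SE, of the tested genes on 4 lists of genes that work with the V-ATPase (colors, lists; filled, adjusted p under 0.05; open, 0.05 or above). Vmat, ClC-c and spin have the highest filled points and prt and Mitf the lowest, with 10 filled points in all.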

How the data were processed

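Poly(A) RNA of FACS-sorted neurons was amplified by the SMART-seq2 method and sequenced. Per the labels and the methods, reads were demultiplexed with bcl2fastq 2.20, aligned to dm6 with STAR and cleared of PCR duplicates with Picard. The authors deposited, for each library, counts of reads per gene, RPM scaled by a total for the library, and RPKM. The deposited RPKM were not used, since their lengths include introns for most genes. The counting program, annotation and strand are not given in the sources used here. Libraries were grouped by the genotype and time in the labels.

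Counts were tested with edgeR 4.0.16 in R 4.3.3 (TMM, filterByExpr with a minimum count of 10, quasi-likelihood test) over all genes, with Benjamini-Hochberg adjustment over all genes tested and a threshold of 0.05. Each SE is the absolute log2 fold change divided by the square root of the F statistic of this test. A gene counted as expressed above 3 RPM. Exon lengths and positions came from the Ensembl BDGP6.54 annotation. Copies were compared as percent of RPM per kilobase. Unassigned reads were left out. Ambiguous reads were 5.67% to 6.10% of all reads listed. Calculations outside R used Python 3.11.15 with pandas 2.3.3, and plots matplotlib 3.10.9.

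Members and lists were chosen with earlier results of these data known. Named genes were the main copies, second copies above a mean of 3 RPM, and list genes past the threshold or given as examples; Vha36-2, Vha36-3 and the related accessory genes were added after their values were seen. Promoter and protein sequences were not used here, so a planned search of promoters for E-box letters was not run. Alternatives were DESeq2 1.42.0, other scalings, filters and covariates, single time points, a replicate block and leaving out each library.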

Additional observations from a re-analysis of the deposited data

Results flagged for a closer look

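Within a genotype, 36 sets of 4 libraries were examined for a library far from the other 3, and chance gives such a library in about 1 of 20 sets. In nSyb ZT14 R2, Vha100-1 was at 355 RPM while the other nSyb libraries were at 286 to 297, and Vha16-1 was at 393 RPM while the others were at 333 to 337. Both values come from the same library. Without it the log2 fold change of Vha100-1 between genotypes was 0.35 (edgeR, adjusted p = 0.0345) and that of Vha16-1 was −0.56 (adjusted p = 0.00951).

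The time effect of VhaM9.7-a took opposite directions, with both ZT14 libraries higher in clk856 and both lower in nSyb. The test of the difference gave an interaction of 0.38 on the log2 scale with an adjusted p of 0.754 (edgeR), so it did not pass the correction.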

How the results depend on the processing

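The 7 V-ATPase genes called between genotypes became 0 with the ZT2 libraries alone and 0 with the ZT14 libraries alone, fits of 2 against 2 in which 8 and 340 of all genes were called in place of 1326. DESeq2 called 2123 genes, 9 of them V-ATPase genes, and scaling by library size alone gave 8 V-ATPase genes. Leaving out each library in turn gave 942 to 1380 genes and 4 to 8 V-ATPase genes, the fewest without clk856 ZT14 R1. Over all genes, the calls between time points in clk856 rose from 2 to 81 without a filter and to 85 with DESeq2, were 4 with the replicate number as a block, and were 0 in a fit of all 4 groups. In nSyb they were 224 with DESeq2, 1 in the fit of all groups and 0 to 1 without single libraries. The interaction was called for 98 genes without a filter, 189 with DESeq2 and 0 to 85 without single libraries, the highest without nSyb ZT2 R2. No V-ATPase gene was called in these. From RPM not divided by exon length, VhaM9.7-a made up 85.9% of the e copies in clk856 and 81.0% in nSyb, and VhaM9.7-b 12.5% and 16.1%.

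Deviations of libraries with the same replicate number correlated between groups by only −0.0262 to 0.0314, and the main fits did not pair them. These correlations cannot show whether R1 and R2 of a time point share a dissociation. With the number as a block, 1265 genes and 7 V-ATPase genes were called between genotypes. Of 493 alternative values for single genes, 414 kept their direction and side of the threshold, 65 lost the call and 5 gained it. Another 9, of Vha13, Vha36-3, Vha68-1, VhaAC45 and VhaSFD, took the other sign without passing the threshold in either fit, 4 of them with libraries scaled by size alone, 3 with the ZT14 libraries alone and 2 without nSyb ZT2 R2.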
